A study of Homo sapiens with 6 samples.

Results

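Mitochondrial ribosomal proteins are nuclear-encoded proteins of the ribosome that works inside mitochondria. The genes described here are the 76 of the 14987 listed genes whose symbol is MRPL or MRPS followed by a number and, in some cases, a letter A to C. By symbol 47 belong to the large subunit (MRPL) and 29 to the small subunit (MRPS). The 6 RNA-seq libraries come from HCT116, a long-established human cell line of colorectal carcinoma origin. The control line NC gave 1 library in control medium and 1 library after 6 h of glucose deprivation. YAP knockdown cells gave 2 libraries in each medium, one from each construct, shYAP1 and shYAP3. The sources used here say neither what NC carries nor whether any library is a separate culture. P-values therefore measure only how far these libraries spread, and that spread holds construct, culture and technical differences together.

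The mitochondrial ribosome translates only the mRNAs of the mitochondrial genome, which encode core subunits of the respiratory chain and of ATP synthase. Its small subunit binds the mRNA and decodes it, and its large subunit joins the amino acids and releases the chain through an exit tunnel at the inner membrane. Part of its proteins have bacterial counterparts, and part arose in mitochondria. All of them are made on cytosolic ribosomes and imported, so their mRNAs are the nuclear share of this translation system.

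The libraries held 16912634 to 22161075 listed reads, and the values are normalized values per gene deposited by the authors, in which 1 read was worth 0.0406 to 0.0693. In NC, shYAP1 and shYAP3, in that order, YAP1 was at 188, 35.7 and 38.2 under control conditions and at 154, 20.3 and 18.2 under deprivation, so it was lower in each shYAP library than in each NC library. The epithelial marker EPCAM was at 202 to 354, KRT8 at 1642 to 3250, KRT18 at 663 to 1666 and KRT19 at 706 to 1300. CDH1 was at 55.1 to 91.9. The other epithelial markers looked at were low, with CDX2 at 5.75 to 14.2 and VIL1 at 1.12 to 3.72. CDX2 was lower after deprivation in each line. The leukocyte genes PTPRC and CD3E, the endothelial genes PECAM1 and CDH5 and the fibroblast genes COL1A2, DCN and LUM were not listed, while COL1A1 was at 2.98 to 10.1 and CD68 at 4.80 to 15.9. In bulk RNA of this kind, fewer cells of a type and less RNA per cell cannot be told apart.

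Of the 76 genes, 75 entered the test, which took genes that reached a value of 1 in 2 or more libraries. The exception was the row named MRPL30, which had 1, 3 and 12 reads in the control libraries of NC, shYAP1 and shYAP3 and 3, 0 and 5 reads in the deprived ones. Its identifier, ENSG00000273155, is named AC092587.1 in GENCODE release 29 and overlaps MRPL30 and LIPT1 there, so whether its reads stand for MRPL30 cannot be told from the table. The MRPS17 row likewise carries the identifier ENSG00000249773, which that release names AC092647.5 and which overlaps MRPS17 and ZNF713. Dividing each value by the length of the principal transcript in kilobases, the highest mean levels were those of MRPL12 (152 per kb), MRPL3 (120 per kb) and MRPL27 (113 per kb). MRPL12 forms the flexible stalk that recruits translation factors, MRPL3 lies near the peptidyl transferase centre and MRPL27 reaches into it. The lowest levels per kb among the tested genes were those of MRPS11 (8.58 per kb) and MRPS33 (9.35 per kb). The transcripts used for them were long, at 3644 and 4241 bases, against a median of 1406 for the tested genes. Their mean values before division were 31.3 and 39.6. The lowest mean value before division was that of MRPL55, at 19.4, so the ranking depends on the transcript lengths.

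After glucose deprivation 15 of the 75 tested genes rose and 2 fell, in an additive fit of medium and genotype across all genes (limma on log2(value + 1) with the variance modelled as a trend on the mean, Benjamini-Hochberg adjusted p at most 0.05). That is 20.0% higher and 2.67% lower, against 16.5% higher and 15.6% lower among the 12263 genes tested. In this fit the share that rose was near the background, and the share that fell was below it. With values scaled to the same sum 3 genes were higher (4% against 6.11% of all genes) and 9 lower (12% against 31%). With length and GC trends removed 6 were higher (8% against 17% of all genes) and 14 lower (18.7% against 20.2%), so the share that rose was then below the background and the share that fell near it. At an unadjusted p of at most 0.05 the count was 32 genes in either direction (42.7%), against 45.4% of all genes. The median log2 difference of the 75 genes was 0.28, against 0.05 for all genes tested, but it was -0.02 against -0.24 with values scaled to the same sum in each library and 0.00 against -0.01 with trends on transcript length and GC content removed.

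**Figure D1:**
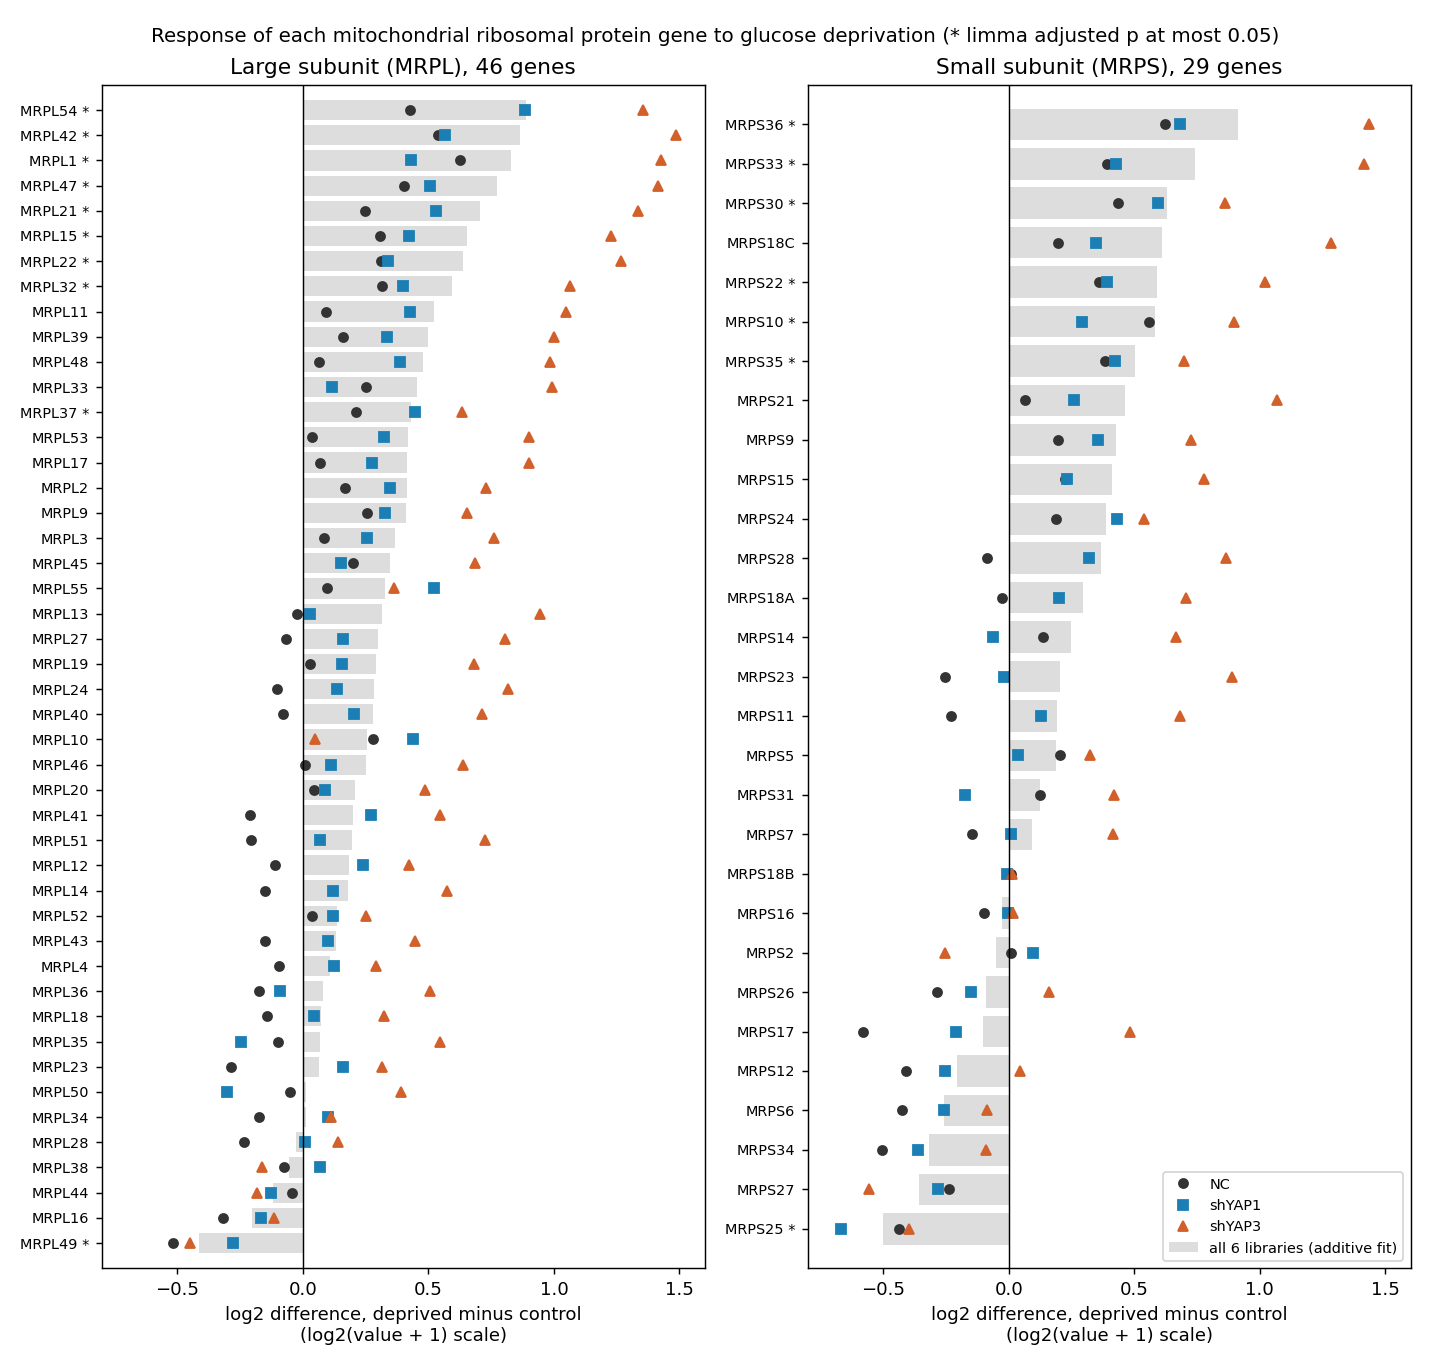
Log2 difference between deprived and control medium (x axis, log2(value + 1) scale) for each tested gene (rows), by subunit; points are the 3 lines, bars the additive fit over the 6 libraries, and asterisks mark an adjusted p of at most 0.05. As deposited, shYAP3 lay farthest to the right in 68 of the 75 genes, and 15 genes rose and 2 fell; scaled to the same sum of values, 3 rose and 9 fell.

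The size of the median response differed between the 3 lines, which was not tested. The median log2 difference of the 75 genes was 0.03 in NC, 0.16 in shYAP1 and 0.67 in shYAP3, while the medians of all genes were 0.02, 0.03 and 0.04. The difference was above 0 for 41 genes in NC (54.7%), 57 in shYAP1 (76%) and 66 in shYAP3 (88%), against 52.2%, 52.8% and 52.6% of all genes. The shYAP3 difference was the largest of the 3 in 68 of the 75 (90.7%), against 41.4% of all genes. For 37 genes (49.3%) the difference was above 0 in all 3 lines and for 7 (9.33%) below 0 in all 3, against 35.1% and 31.1% of all genes. For 18 genes (24%), 14 of them of the large subunit, it was below 0 in NC and above 0 in both shYAP lines, and for 0 genes the reverse, against 5.90% and 4.59% of all genes. Each line has 1 library per medium, so these counts have no replicate within a line. All 3 deprived libraries lay above all 3 control libraries for 27 genes (36%) and below for 7 (9.33%), against 26.8% and 23.8% of all genes tested.

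MRPS36 (ENSG00000134056) had the largest rise of the genes with a small-subunit symbol. Despite its symbol, its protein is now known as a part of the 2-oxoglutarate dehydrogenase complex rather than of the ribosome. Its values were 16.3, 19.1 and 19.1 in control NC, shYAP1 and shYAP3 cells and 25.7, 31.2 and 53.3 after deprivation. The groups did not overlap, and shYAP3 after deprivation stood well above the other libraries. The log2 difference was 0.91 ± 0.20 (SE, n = 3 libraries per medium, limma adjusted p = 0.012). With length and GC trends removed it was 0.28 and did not pass (limma adjusted p = 0.0503), below MRPS33 (0.60), MRPS30 (0.37) and MRPS22 (0.34).

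MRPL54 (ENSG00000183617), a mitochondria-specific protein of the large subunit, had the largest rise of the large-subunit genes. It was at 20.1, 22.1 and 22.8 in control medium against 27.5, 41.7 and 59.7 after deprivation, in the same order of lines. Every deprived library was above every control library, with NC lowest and shYAP3 highest. The log2 difference was 0.89 ± 0.19 (SE, limma adjusted p = 0.011). With length and GC trends removed it was 0.53, below MRPL42 (0.88). The transcript used for MRPL42 has 15582 bases, against a median of 1406 for the tested genes. Its value with trends removed depends on that length.

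MRPL1 (ENSG00000169288), the counterpart of the bacterial L1 stalk protein, had values of 30.4, 42.9 and 37.7 in control medium and 47.6, 58.3 and 103 after deprivation. The deprived libraries were all higher, although NC after deprivation was close to shYAP1 in control medium. The log2 difference was 0.83 ± 0.21 (SE, limma adjusted p = 0.017). MRPL42, a mitochondria-specific protein, was at 88.8, 108 and 113 against 130, 161 and 318, a log2 difference of 0.86 ± 0.24 (SE, limma adjusted p = 0.024). Its deprived libraries were all above its control libraries. Scaled to the same sum of values, MRPL42 had 0.56 and did not pass (limma adjusted p = 0.056).

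MRPS30 (ENSG00000112996), long grouped with the small subunit but placed by structures in the large subunit, rose with less difference between lines. Its values were 82.7, 86.5 and 86.6 in control medium and 112, 131 and 158 after deprivation, with no overlap. The log2 difference was 0.63 ± 0.14 (SE, limma adjusted p = 0.011), and by line it was 0.44 in NC, 0.60 in shYAP1 and 0.86 in shYAP3. Scaled to the same sum of values it was 0.33 and did not pass (limma adjusted p = 0.082).

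The other 10 genes that rose had log2 differences from 0.43 to 0.77. MRPL47 (0.77, adjusted p = 0.023) and MRPL22 (0.64, adjusted p = 0.041), both by limma, lie around the exit of the tunnel. MRPL21 (0.71), MRPL15 (0.65) and MRPL32 (0.59) have bacterial counterparts, and MRPL37 (0.43) does not. MRPL37 was the closest to the threshold, with a limma adjusted p of 0.047. Of the small subunit, MRPS33 (0.74), MRPS22 (0.59) and MRPS35 (0.50) are mitochondria-specific, and MRPS10 (0.58) has a bacterial counterpart. MRPS22 is known as a gene of inherited mitochondrial disease.

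MRPS25 (ENSG00000131368), a mitochondria-specific small-subunit protein, and MRPL49 (ENSG00000149792), a mitochondria-specific large-subunit protein, were the genes that fell. MRPS25 was at 52.7, 61.9 and 54.9 in control medium against 38.7, 38.6 and 41.5 after deprivation, a log2 difference of -0.50 ± 0.13 (SE, limma adjusted p = 0.020). MRPL49 was at 112, 99.5 and 99.6 in control medium against 78.4, 81.8 and 72.8 after deprivation, a log2 difference of -0.41 ± 0.13 (SE, limma adjusted p = 0.037). For both genes every deprived library was below every control library, and the 3 lines were close to each other in each medium. In GENCODE release 29, exons of MRPL49 overlap FAU and SYVN1 on the opposite strand, and exons of MRPS25 overlap NR2C2. The sources used here name no strand setting for the counting, so reads of these pairs cannot be told apart.

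**Figure D2:**
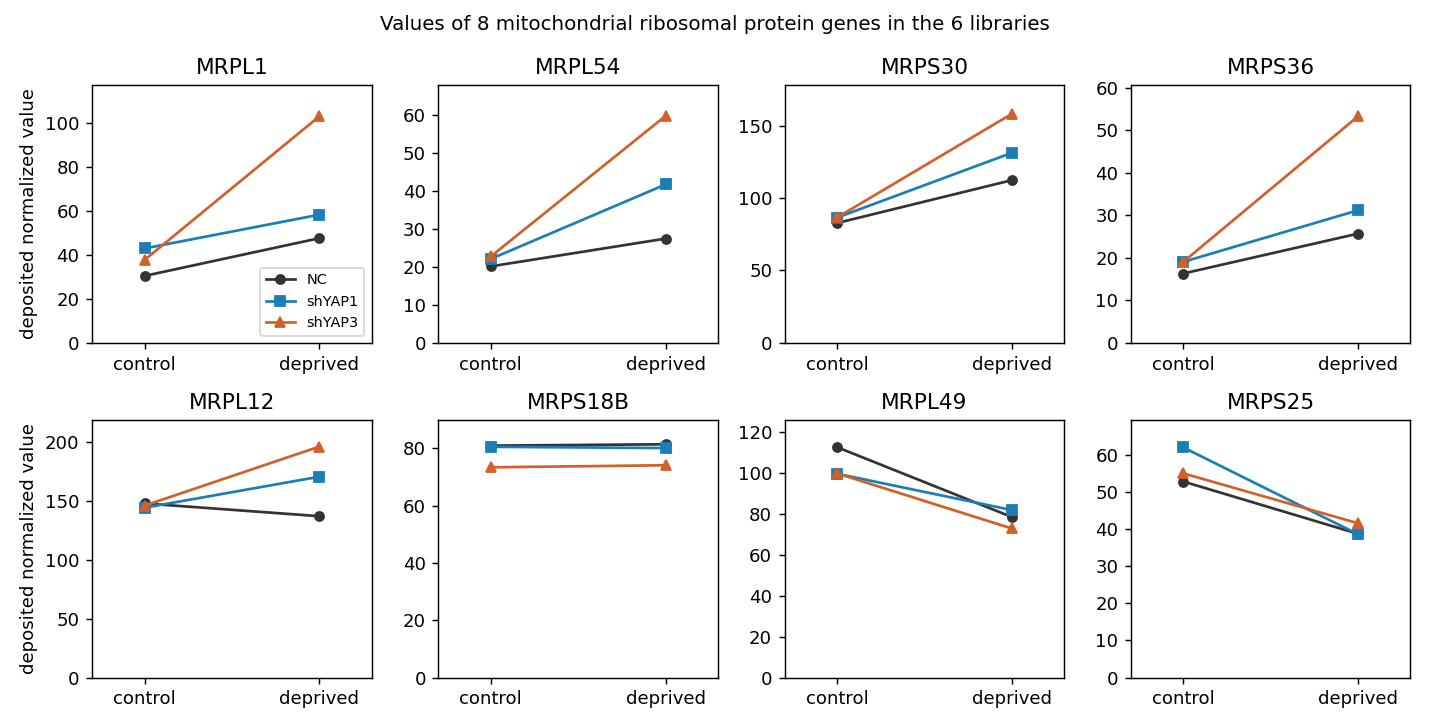
Deposited normalized values (y axis, from 0) of 8 genes in control and deprived medium, with 1 point per library and a line joining the libraries of NC, shYAP1 and shYAP3. MRPL1, MRPL54, MRPS30 and MRPS36 were higher in all 3 lines, MRPL49 and MRPS25 lower in all 3, MRPL12 was lower in NC only, and MRPS18B stayed between 73.4 and 81.4.

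The start regions of 5 of these genes are shown to compare the genes that rose with those that fell. The sequences are from RefSeq promoters (GRCh38.p14), read 5′ to 3′ on the gene's own strand from 250 bases before the start through the first 30 transcribed bases, and capitals mark a motif match. They are MRPS36 (chr5:69217510-69217789, plus strand), MRPL54 (chr19:3762432-3762711, plus strand), MRPS30 (chr5:44808697-44808976, plus strand), MRPS25 (chr3:15065286-15065565, minus strand) and MRPL49 (chr11:65121933-65122212, plus strand).
MRPS36: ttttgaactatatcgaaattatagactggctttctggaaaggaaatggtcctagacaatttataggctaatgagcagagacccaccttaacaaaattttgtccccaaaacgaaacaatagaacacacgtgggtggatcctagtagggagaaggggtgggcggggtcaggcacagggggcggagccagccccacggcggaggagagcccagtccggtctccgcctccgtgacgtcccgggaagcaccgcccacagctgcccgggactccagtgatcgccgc
MRPL54: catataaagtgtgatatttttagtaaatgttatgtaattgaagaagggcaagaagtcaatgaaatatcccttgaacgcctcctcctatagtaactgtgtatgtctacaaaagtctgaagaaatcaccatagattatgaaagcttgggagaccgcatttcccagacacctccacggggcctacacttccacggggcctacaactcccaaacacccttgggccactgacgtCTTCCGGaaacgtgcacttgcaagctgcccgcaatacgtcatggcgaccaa
MRPS30: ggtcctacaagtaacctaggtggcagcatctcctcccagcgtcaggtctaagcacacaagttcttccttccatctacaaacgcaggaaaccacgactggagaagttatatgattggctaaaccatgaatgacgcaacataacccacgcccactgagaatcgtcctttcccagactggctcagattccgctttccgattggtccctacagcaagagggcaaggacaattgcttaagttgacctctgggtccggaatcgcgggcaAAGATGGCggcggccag
MRPS25: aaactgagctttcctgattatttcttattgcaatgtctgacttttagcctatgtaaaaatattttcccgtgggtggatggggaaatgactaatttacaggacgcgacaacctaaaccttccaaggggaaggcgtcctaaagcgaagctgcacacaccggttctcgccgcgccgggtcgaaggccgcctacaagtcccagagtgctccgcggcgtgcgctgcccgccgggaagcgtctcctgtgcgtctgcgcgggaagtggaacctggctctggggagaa
MRPL49: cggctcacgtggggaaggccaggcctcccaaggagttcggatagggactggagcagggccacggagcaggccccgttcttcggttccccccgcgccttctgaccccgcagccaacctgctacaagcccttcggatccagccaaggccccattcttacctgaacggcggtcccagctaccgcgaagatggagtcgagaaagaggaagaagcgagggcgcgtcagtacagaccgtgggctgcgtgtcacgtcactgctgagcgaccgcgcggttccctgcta

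In MRPL54 the capitals are a match to the GABPA string on the opposite strand, which begins 21 bases before the start. In MRPS30 they are a match to the YY1 string, which begins 13 bases after the start. The windows of MRPS36, MRPS25 and MRPL49 held none of the 3 strings searched.

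These strings stand for factors known to act at promoters of nuclear genes for mitochondrial proteins: GABPA (CCGGAAG), YY1 (AAGATGGC) and NRF1 (GCGCATGC), searched on both strands of the full 300-base RefSeq windows. The GABPA and YY1 strings can share the letters AAG, and a match is then counted for both. Promoters were matched for 68 of the 76 genes. MRPL2, MRPL10, MRPL13, MRPL15, MRPL21, MRPL23, MRPL35 and MRPS28 had no entry. The YY1 string was in 20 of the 68 windows (29.4%), against 4.62% of the other genes of the expression table and 3.03% of all promoters. The GABPA string was in 28 windows (41.2%), against 17.4% and 10.7%. The NRF1 string was in 6 windows (8.82%), against 5.03% and 3.27%. By subunit the shares were similar, with the YY1 string in 30% of the large and 28.6% of the small subunit windows and the GABPA string in 40% and 42.9%. Among the 13 matched genes that rose, 6 held the YY1 string and 5 the GABPA string. Among the 52 matched genes that were not called, 14 and 22 did. A match is a description of these letters and shows no binding.

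Many of these genes start close to a gene on the opposite strand. Of the 75 tested genes, 21 (28.0%) had a protein-coding gene starting within 1000 bases on the other strand in GENCODE release 29, against 10.6% of 12149 tested protein-coding genes. MRPL47 and its neighbour NDUFB5, a subunit of respiratory complex I, lie 48 bases apart and both rose (0.77 and 0.63). MRPL32 and a row named PSMA2, after a proteasome subunit, lie 26 bases apart and both rose (0.59 and 0.63). The identifier of that row is named AC010132.3 in the release, and PSMA2 under its own identifier overlaps MRPL32 there. Other pairs had unlike values. PPP1R10 fell by 1.42 on the log2 scale beside MRPS18B, whose log2 difference was 0.00. HIRA, a histone chaperone, fell by 0.94 beside MRPL40 (0.28, adjusted p = 0.25, limma), and C10orf2, the mitochondrial DNA helicase Twinkle, fell by 0.60 beside MRPL43 (0.13, adjusted p = 0.51, limma). MRPL46 and MRPS11 share a start region, with 34 bases between their starts, and had log2 differences of 0.25 and 0.19, neither of which passed the test. Over the 20 pairs with both genes tested, the Spearman correlation of the responses was 0.42, in which MRPL46 and MRPS11 stand in 2 pairs and all values come from the same 6 libraries.

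The large and small subunits had similar shares of called genes when grouped by symbol. Of the large subunit 9 of 46 genes rose (19.6%) and 1 fell (2.17%), and of the small subunit 6 of 29 rose (20.7%) and 1 fell (3.45%). Of all genes 16.5% rose and 15.6% fell, so in both subunits the share that rose was near the background. Grouped by structure, 10 of 48 large-subunit genes rose (20.8%) and 1 fell (2.08%), and 4 of 26 small-subunit genes rose (15.4%) and 1 fell (3.85%). The median log2 differences in NC, shYAP1 and shYAP3 were 0.03, 0.16 and 0.67 for the large subunit and 0.01, 0.10 and 0.67 for the small subunit. The signs of these medians depended on the scaling: scaled to the same sum of values they were -0.17, -0.08 and 0.20 for the large subunit and -0.19, -0.14 and 0.21 for the small subunit, against -0.16, -0.20 and -0.39 for all genes.

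The summed values of the large-subunit genes were 2554, 2679 and 2586 in control NC, shYAP1 and shYAP3 cells and 2631, 3119 and 4225 after deprivation. Those of the small-subunit genes were 1655, 1741 and 1630 in control medium and 1654, 1853 and 2323 after deprivation. The large to small ratio was therefore 1.54, 1.54 and 1.59 in control medium and 1.59, 1.68 and 1.82 after deprivation. It was higher after deprivation in each line, with the smallest step in NC and the largest in shYAP3. With MRPS30 and MRPS18A placed in the large subunit and MRPS36 in neither, as structures have them, the ratio was 1.77, 1.77 and 1.83 against 1.89, 2.02 and 2.17. These ratios do not depend on scaling, but the mean log2 change of 0.12 was 0.063 with length and GC trends removed. No test was made of a sum over genes chosen with results of these data known.

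As a share of listed reads, the 76 genes together took 0.475% (95% Wilson interval 0.472 to 0.478) in NC, 0.492% (0.489 to 0.495) in shYAP1 and 0.501% (0.498 to 0.504) in shYAP3 in control medium. After deprivation the shares were 0.421% (0.418 to 0.424), 0.467% (0.463 to 0.470) and 0.559% (0.555 to 0.562). The share was lower after deprivation in NC and shYAP1 and higher in shYAP3. These intervals cover counting error only, and reads without molecular identifiers are not independent molecules.

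**Figure D3:**
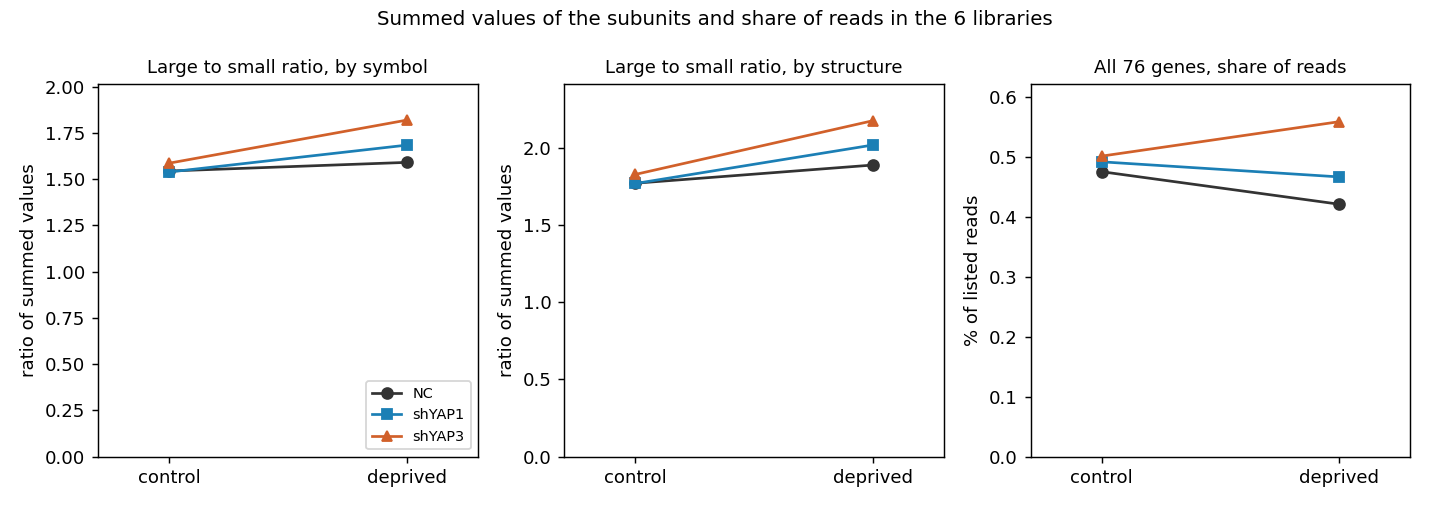
Ratio of the summed values of large to small subunit genes, by symbol and by structure, and the share of listed reads of all 76 genes (y axes, from 0) in control and deprived medium for the 3 lines, with 1 point per library. The ratio by symbol went from 1.54 to 1.59 in NC, 1.54 to 1.68 in shYAP1 and 1.59 to 1.82 in shYAP3, while the share of reads was lower after deprivation in NC and shYAP1.

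Grouped by origin, 6 of 28 tested large-subunit genes with a bacterial counterpart rose and 0 fell, and 3 of 18 mitochondria-specific ones rose and 1 fell. In the small subunit 1 of 16 genes with a bacterial counterpart rose, and 4 of 10 mitochondria-specific ones rose and 1 fell, with MRPS30 counted here by its symbol. No difference between these groups was tested. By place in the ribosome, none of the 3 stalk genes, the 3 genes near the peptidyl transferase centre, the 6 of the central protuberance or the 5 of the mRNA path and decoding site passed the limma test. At an unadjusted p of at most 0.05 these counts were 1, 2, 1 and 1, where 45.4% of all genes passed. For the adjusted counts by origin and place, the shares of all genes were 16.5% higher and 15.6% lower. Of 5 genes at the exit tunnel 2 rose, MRPL22 and MRPL47. MRPL45, which ties the exit to the inner membrane, was at 82.0, 90.9 and 79.3 in control medium and 94.4, 101 and 128 after deprivation, a log2 difference of 0.35 ± 0.15 (SE, limma adjusted p = 0.097).

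The 3 paralogues of bacterial S18 differed in their values. MRPS18C, found in the small subunit, was at 33.4, 38.1 and 34.7 in control medium and 38.4, 48.8 and 85.9 after deprivation, a log2 difference of 0.61 ± 0.22 (SE, limma adjusted p = 0.061, and 0.033 with the line as a block). MRPS18A, which structures place in the large subunit, had a log2 difference of 0.29 ± 0.16 (SE, limma adjusted p = 0.18). MRPS18B, a small-subunit protein, was at 80.9, 80.5 and 73.4 in control medium and 81.4, 80.1 and 74.1 after deprivation. Its log2 difference was 0.00 ± 0.13 (SE, limma adjusted p = 0.98), so its values were almost the same in both media in each line. Whether the paralogues differ in response was not tested.

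MRPL12, the most abundant per length, was at 148, 144 and 146 in control medium against 137, 170 and 196 after deprivation. The control libraries were close together, and the deprived ones lay on both sides of them. The log2 difference was 0.18 ± 0.15 (SE, limma adjusted p = 0.35). MRPS12, the decoding-site protein whose bacterial counterpart carries streptomycin resistance mutations, was at 55.9, 55.1 and 51.3 against 41.9, 46.1 and 53.0. Its log2 difference was -0.21 ± 0.14 (SE, limma adjusted p = 0.28). The other genes with the most negative differences were MRPS27 (-0.36, adjusted p = 0.072), MRPS34 (-0.32, adjusted p = 0.097) and MRPS6 (-0.26, adjusted p = 0.17) in the small subunit. In the large subunit they were MRPL16 (-0.20), MRPL44 (-0.12), MRPL38 (-0.06) and MRPL28 (-0.03), with limma adjusted p from 0.25 to 0.89. MRPS27, MRPS6, MRPS34, MRPL16 and MRPL44 were lower after deprivation in all 3 lines.

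YAP knockdown moved none of the 75 genes past the threshold over both media (limma), where 0.00815% of all genes did, and edgeR on recovered reads also called 0. At an unadjusted p of at most 0.05 there were 8 genes (10.7%), against 7.32% of all genes. The smallest p-values were those of MRPL50, with a log2 difference between shYAP and NC of 0.47 ± 0.18, MRPL1 (0.54 ± 0.22), MRPL39 (0.50 ± 0.21), MRPL54 (0.49 ± 0.20) and MRPL17 (0.43 ± 0.18), each with an SE and a limma adjusted p of 0.58. MRPL50, a mitochondria-specific protein, was at 31.8, 44.4 and 41.2 in control NC, shYAP1 and shYAP3 cells and at 30.6, 35.8 and 54.3 in deprived ones, so each shYAP library was above both NC libraries. This held for 16 of the 75 genes (21.3%), and the reverse for 1, MRPS18B (1.33%), against 4.83% and 6.04% of all genes tested. Among 77 nuclear genes of the respiratory chain and ATP synthase the counts were 16 and 1. This pattern was therefore not particular to the mitochondrial ribosomal proteins.

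The median of the knockdown difference over the 75 genes was 0.24, against -0.01 for all genes, and 69 were above 0 (92%, against 48.7% of all genes). It differed between media. In control medium it was 0.06 for shYAP1 and 0.00 for shYAP3 against NC, and after deprivation 0.22 and 0.63. Single genes differed more in control medium, as the values of MRPL50 and MRPL1 above show. Without the NC deprived library the fit compares shYAP with NC in control medium alone, and the median was 0.04. Without the NC control library it compares them in deprived medium alone, and the median was 0.44. Both fits therefore restate the differences by medium and are not separate checks.

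No difference in response between shYAP and NC was detectable with these libraries. In the limma interaction test 0 of the 75 genes passed, as did 0% of all genes, and 0 passed at an unadjusted p of at most 0.05 (0.905% of all genes did) or with edgeR. The median difference of the responses was 0.35, and 67 of the 75 were above 0 (89.3%, against 50.6% of all genes). The smallest p-values were those of MRPL41 (0.62 ± 0.32), MRPL54 (0.69 ± 0.38), MRPL23 (0.52 ± 0.30), MRPS17 (0.72 ± 0.43) and MRPL21 (0.68 ± 0.41), each with an SE and a limma adjusted p of 1.0. MRPL41 was at 40.2, 36.7 and 36.9 in control medium against 34.6, 44.5 and 54.2 after deprivation. It was lower after deprivation in NC and higher in both shYAP lines. Without the shYAP1 deprived library 43 of the 75 genes passed, against 22.3% of all genes, in a fit that takes its spread from the control shYAP libraries alone and assumes that the single shYAP3 and NC libraries vary like them.

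Between the constructs, 0 of the 75 genes passed over both media in limma, against 0.155% of all genes, and 0 did with edgeR. At an unadjusted p of at most 0.05 there was 1 (1.33%, against 5.65% of all genes), MRPL42, which had a log2 difference between shYAP3 and shYAP1 of 0.52 ± 0.25 (SE, limma adjusted p = 0.88). The next were MRPS14 (0.45), MRPL35 (0.42), MRPL33 (0.40) and MRPS36 (0.38). The median was 0.16 and 61 genes were above 0 (81.3%, against 47.5% of all genes). MRPL35 was at 50.7 in shYAP1 and 51.7 in shYAP3 in control medium against 42.6 and 75.8 after deprivation, so the constructs were close in control medium and apart after deprivation.

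The responses moved with the base composition of the transcripts. Across the 75 genes the Spearman correlation of the log2 difference with GC content was -0.45 in NC, -0.13 in shYAP1 and -0.49 in shYAP3, and across 12213 genes of the whole table it was -0.32, 0.01 and -0.33. Genes of a library share its reaction and depth, so these are descriptions with no test. Of the 38 genes at or below the median GC content of 50.7%, 12 rose and 1 fell, and of the 37 above it 3 rose and 1 fell. Over all genes of any GC content 16.5% rose and 15.6% fell. Their shares within the same GC ranges were not computed, so whether this split is particular to these genes cannot be told. MRPS36 has a GC content of 35.0% and MRPL54 one of 60.9%, so the largest rises as deposited came from both ends. The genes are also short, with a median transcript of 1406 bases against 3120 for all genes tested. Of the 75, 58 fell in the shortest of 5 equal bins of all genes (207 to 1802 bases), where their median log2 differences were 0.04, 0.18 and 0.64 in NC, shYAP1 and shYAP3 against 0.10, 0.26 and 0.50 for all genes of that length. The part of library composition in the response was not tested beyond removing these trends, which left 6 genes higher and 14 lower, with 17% and 20.2% of all genes called higher and lower in that fit.

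**Figure D4:**
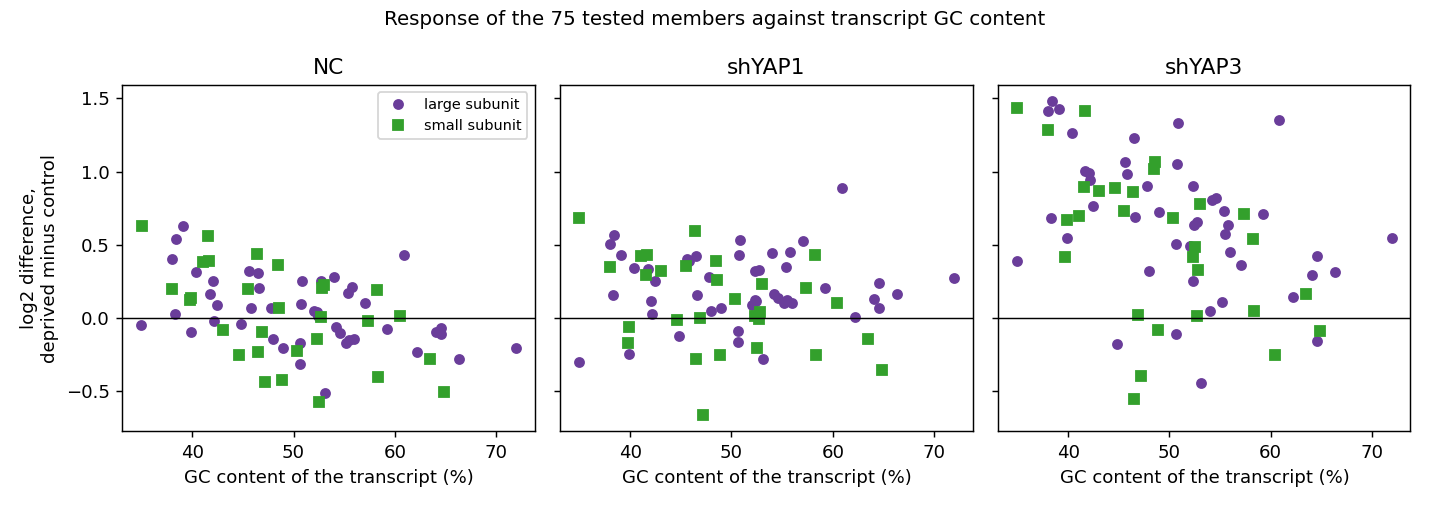
Log2 difference between deprived and control medium (y axis) against the GC content of the principal transcript (x axis, percent) for the 75 tested genes in NC, shYAP1 and shYAP3, with circles for the large and squares for the small subunit. Points lie lower toward high GC content in NC and shYAP3 (Spearman -0.45 and -0.49), with a weaker slope in shYAP1 (-0.13).

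**Figure D5:**
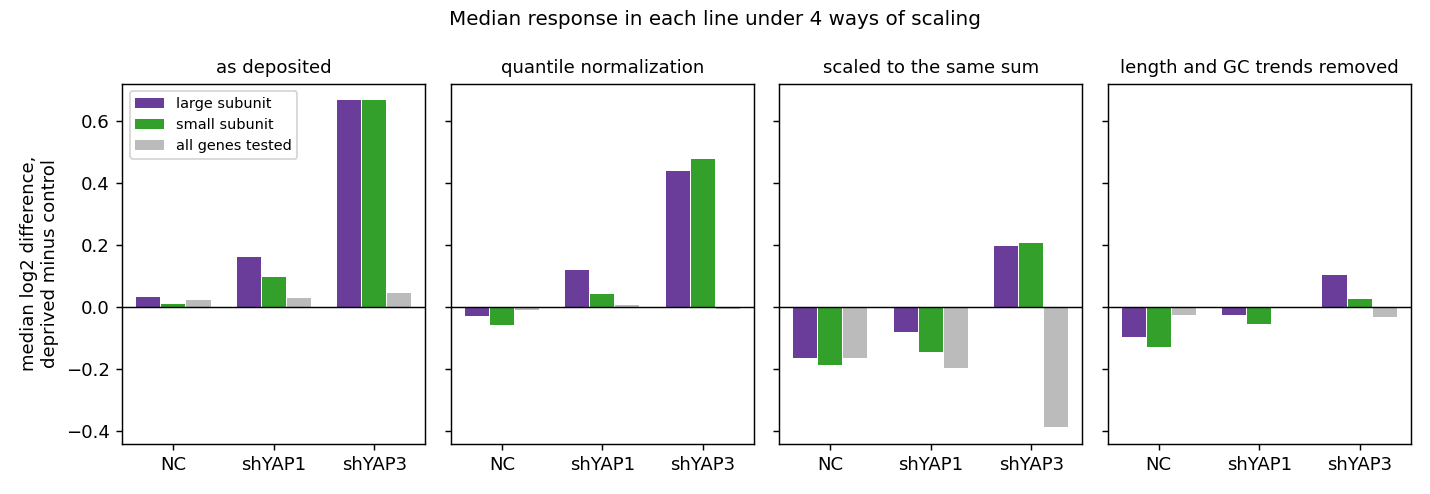
Median log2 difference between deprived and control medium (y axis) in NC, shYAP1 and shYAP3 for the large subunit, the small subunit and all genes tested, under 4 ways of scaling; bars start at 0. The order of the lines was the same in each panel for both subunits, while the NC medians were above 0 as deposited and below 0 in the other 3 panels.

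Further proteins of the mitochondrial ribosome carry other symbols. The share of these that rose was 28.6%, against 16.5% of all genes. Of 7 such genes 2 rose: DAP3, a GTP-binding protein of the small subunit, with a log2 difference of 0.65 ± 0.17 (SE, limma adjusted p = 0.019), and ICT1, a peptidyl-tRNA hydrolase of the large subunit, with 0.67 ± 0.20 (SE, limma adjusted p = 0.033). DAP3 was at 126, 144 and 125 in control medium against 163, 201 and 273 after deprivation. GADD45GIP1 had a log2 difference of 0.54 (adjusted p = 0.054, limma).

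Genes that build and run the mitochondrial ribosome gave other counts. Of 27 assembly factors 0 rose and 1 fell, with a median of 0.04. The gene that fell was MRM1, which methylates the large ribosomal RNA of mitochondria, at 12.1, 15.1 and 13.9 against 7.93, 6.51 and 8.66 (-0.76, limma adjusted p = 0.010). RNMTL1, another such methyltransferase (-0.38), and the helicase DDX28 (0.39) each had a limma adjusted p of 0.053. Of 16 translation factors, the recycling factor MRRF rose (0.64, limma adjusted p = 0.016) and the methionine aminopeptidase METAP1D fell (-0.66, limma adjusted p = 0.021), with a median of 0.14. The release factor gene MTRF1L had 0.50 (limma adjusted p = 0.057). Of 19 genes for mitochondrial transcription and RNA handling 0 rose and 3 fell, the RNA-binding FASTKD5 (-0.66), FASTKD1 (-0.55) and PTCD1 (-0.43), with a median of 0.04. These shares can be set against the 16.5% and 15.6% of all genes.

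Among 10 regulators of mitochondrial gene expression 3 rose (30%) and 4 fell (40%), against 16.5% and 15.6% of all genes. PPARGC1B, a coactivator of mitochondrial biogenesis, was at 25.8, 22.8 and 22.4 in control medium against 12.2, 8.42 and 3.67 after deprivation (-1.56 ± 0.27, SE, limma adjusted p = 0.0045). It was lower after deprivation in every line and lowest in shYAP3. GABPA, which binds the string described above, was at 27.6, 51.9 and 45.4 against 56.2, 64.2 and 98.1 (0.80 ± 0.18, SE, limma adjusted p = 0.012), and its partner GABPB1 rose (0.56) while GABPB2 fell (-0.72). MYC rose (0.85), and YY1 (-0.45, limma adjusted p = 0.044) and the cofactor HCFC1 (-0.73) fell. NRF1 had a log2 difference of -0.07 (limma adjusted p = 0.71).

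Of the genes of the cytosolic ribosomal proteins, which form the ribosome that makes all these proteins, 79 of 79 rose, against 16.5% of all genes. Their median was 0.91, with 0.48, 0.76 and 1.48 in NC, shYAP1 and shYAP3. RPL10A (1.04) and RPL12 (0.81) were among those with the smallest p-values. Of 77 nuclear genes of the respiratory chain and ATP synthase 19 rose (24.7%, against 16.5% of all genes) and 0 fell (against 15.6%). Their median was 0.44, with medians of 0.11, 0.34 and 0.92 by line. The shYAP3 difference was the largest in 70 of these 77 genes. For 17 the difference was below 0 in NC and above 0 in both shYAP lines. The knockdown difference was above 0 in 69, and the difference in response between shYAP and NC in 77. This list therefore shared these traits with the mitochondrial ribosomal proteins. NDUFB11 (0.71) and NDUFS4 (0.93) of complex I and COX6A1 (0.82) of complex IV led that list by p-value. The mitochondrial ribosomal proteins, with 0.03, 0.16 and 0.67, had the smallest medians of these 3 groups in each line and the same order of lines. No difference between the groups was tested, and all values come from the same 6 libraries. The medians of the cytosolic and respiratory chain lists are as deposited, and those under other scalings were not computed. As a share of listed reads the respiratory chain genes went from 0.903% to 0.861% in NC. Their share went from 0.916% to 0.995% in shYAP1 and from 0.939% to 1.29% in shYAP3.

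Of the 13 mitochondrial genes whose mRNAs the mitochondrial ribosome translates, 0 rose and 1 fell (7.69%), against 16.5% and 15.6% of all genes. MT-ND6, encoded on the opposite strand from the other mitochondrial mRNAs, was at 672, 683 and 602 in control medium against 476, 477 and 398 after deprivation (-0.54 ± 0.14, SE, limma adjusted p = 0.023). With no strand setting named for the counting, reads of MT-ND6 cannot be told from reads of the other strand at that place. MT-ND3 (0.49, limma adjusted p = 0.051) and MT-CO3 (0.47, limma adjusted p = 0.075) did not pass. The median was 0.16, with 0.05 in NC, 0.26 in shYAP1 and 0.13 in shYAP3, so the order of the lines was not that of the ribosomal protein genes. As a share of listed reads the 13 genes went from 5.70% to 5.48% in NC and from 5.76% to 5.88% in shYAP1. In shYAP3 the share went from 5.47% to 4.27%. Their medians under other scalings were not computed.

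The calls of the response depended on which libraries entered. Without either NC library, the other NC library is fitted exactly, so both fits take the response from the 4 shYAP libraries alone. Their median response was the same, 0.42, so they are not separate checks of it. None of the 17 called genes was called in each of the 6 fits that left out a library, and 4 of the 17, MRPL1, MRPL54, MRPS25 and MRPL49, were called in all 8 other settings. Without the shYAP1 control library 0 genes were called, while 4.59% of all genes rose and 4.79% fell, and without the shYAP3 control library 0 were called, while 3.86% and 5% of all genes were. Without the NC control or the NC deprived library 4 genes rose (5.33%) and 0 fell, against 5.62% and 5.64% of all genes that rose and 5.90% that fell. Without the shYAP1 deprived library 24 rose (32%) and 3 fell (4%), against 21.4% and 19.4% of all genes. Without the shYAP3 deprived library 23 rose (30.7%) and 7 fell (9.33%), against 23.4% and 19.8%.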

How the data were processed

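RNA was measured in 6 libraries, grouped by the labels into NC and shYAP cells in control or glucose-deprived medium. Polyadenylated RNA was selected with oligo-dT beads and fragmented, per the labels' protocols. The submitters' processing notes name Bowtie2, BWA and hg19, and the sources used here give no counter, annotation or strand setting. The authors deposited a signal per gene that they had normalized in a way not described. All values (100%) were whole multiples of 1 read at a tolerance of 0.01 read, so reads were recovered. The table lists only genes with reads in NC control cells. The upper limit for a value of 0 is 3 reads (0.122 to 0.208), for counting error only.

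The main test was limma 3.58.1 in R 4.3.3 on log2(value + 1), which understates changes of low genes, fitted on all 12263 genes that reached a value of 1 in 2 or more libraries and adjusted by Benjamini-Hochberg. It was chosen because the values are normalized. Response and knockdown came from an additive fit of genotype and medium, with an interaction term added for their difference, and the constructs from the 4 shYAP libraries. The scripts were tested on simulated data. edgeR 4.0.16 on the recovered reads was an alternative, as were quantile normalization, scaling to the same sum, a pseudocount of 0.1, no filter, no trend, removal of length and GC trends, the line as a replicate block and leaving out each library. The libraries of a line pair across media by cell line. Their deviations from the mean over all libraries of the same medium had correlations of 0.46 (NC), 0.01 (shYAP1) and 0.33 (shYAP3). These deviations also hold the difference between NC and shYAP.

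Lengths and GC content are those of principal transcripts in GENCODE release 29 (GRCh38, another build than hg19), found by identifier for 14686 rows (98.0%) and by identifier or symbol for 14880 (99.3%). The genes and lists were chosen with earlier results of these data known. Genes were named by a rule: per subunit the 5 largest and the 5 most negative responses, the 5 smallest p-values in each other comparison, the 3 highest and lowest per length, those below the filter, 8 genes for their roles and 3 per related list by p-value. The other genes that passed, the neighbours at shared starts and the remaining regulators were named after their values were seen. An item of a related list that the rule names is not reported here.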

Additional observations from a re-analysis of the deposited data

How the results depend on the processing

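The number of genes that rose after deprivation was 15, where 16.5% of all genes did. It was 14 with quantile normalization (14.8% of all genes), 15 with a pseudocount of 0.1 (16.3%) and 14 with no trend (15.7%). With edgeR it was 14 (15.1% of all genes) and with no filter 9 (10.9%). With values scaled to the same sum it was 3 (6.11% of all genes) and with length and GC trends removed 6 (17%). The number that fell was 2, where 15.6% of all genes did, and it was 4 with quantile normalization (17.6% of all genes). With values scaled to the same sum 9 fell (31% of all genes) and with length and GC trends removed 14 (20.2%). With the line as a replicate block 19 rose (25.3%, against 19% of all genes) and 2 fell (2.67%, against 17.4%). The block added MRPL9, MRPL11, MRPL39 and MRPS18C to the called genes, with limma adjusted p from 0.033 to 0.0497. Leaving out each library in turn gave 0 to 24 genes higher and 0 to 7 lower, and a median response of 0.09 to 0.42. The lowest median came without the shYAP3 deprived library. The response of MRPL50 changed from 0.01 to -0.46 with length and GC trends removed (limma adjusted p = 0.0047), and the cause was not tested.

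No gene was called for the knockdown in any of the 13 alternatives. The interaction was called for 0 genes in the alternatives run, except without the shYAP1 deprived library, where it was 43, so leaving out each library gave 0 to 43. The change of the large to small ratio was 0.12 on the log2 scale, 0.18 with subunits by structure, 0.21 from medians of the genes, 0.063 with length and GC trends removed and 0.073 to 0.17 without each library. The construct comparison without a shYAP library and the interaction without an NC library could not be fitted. Of the 75 tested genes, 26 that were not called were called in at least 1 other setting or left-out fit. With 3 libraries per medium an exact permutation test of a single gene could not go below a two-sided p of 0.1.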

Other observations

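Annotation limits bear on several of these genes. In GENCODE release 29, 41 of the 76 genes have an exon over an exon of another gene, 34 of them over a protein-coding gene, and 29 on the opposite strand. For 33 of the 76 a named pseudogene is annotated, at most 8 for 1 gene, MRPS21. MRPS21, a small-subunit protein with a bacterial counterpart, was at 52.9, 62.4 and 60.0 in control NC, shYAP1 and shYAP3 cells and at 55.4, 74.8 and 127 after deprivation, a log2 difference of 0.46 ± 0.21 (SE, limma adjusted p = 0.12). How the counting treated reads shared with pseudogenes was not given in the sources used here, and their part in these values was not tested.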
